A study of Mus musculus with 24 samples.

Results

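The RNA of 9 genes that mark the mural cells of blood vessels was followed in the medial frontal cortex of mice. Pdgfrb, Rgs5, Kcnj8, Abcc9, Anpep and Vtn are known from pericytes, and Acta2, Tagln and Myh11 from vascular smooth muscle. The genes were chosen by name as known markers, with earlier results of these data known, out of 36096 genes in the deposited mRNA table. All 9 passed the filter on low values, and 15786 genes were tested in all.

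All mice were of the C57BL/6J strain, were sampled at postnatal day 28 and carried Emx1-cre. The 3 control males and 3 control females were offspring of Emx1-cre mice and carried no other listed allele. The 3 males and 3 females called Dnmt3l below came from crossing mice with a conditional Dnmt3l knock-in to Emx1-cre mice (genotype Dnmt3l;Emx1-cre). Emx1-cre recombines in progenitors of the dorsal forebrain, which give rise to excitatory cortical neurons, astrocytes and oligodendrocytes. The labels do not say whether a sample was 1 animal or a pool, nor give the number of copies of each allele. The p-values therefore rest on the spread between samples only, and part of that spread may be technical. Library names start with CM, CF, DM or DF, for control male, control female, Dnmt3l male and Dnmt3l female, and end with the replicate number. The question was whether mural cell genes differed between the genotypes, over both sexes and in each.

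Mural cells wrap the endothelial tube of brain vessels, pericytes along capillaries and smooth muscle cells along arteries and arterioles. Endothelial cells release PDGF-B, which acts on the PDGF receptor beta of pericytes and holds them at the vessel wall, where they help to form the blood-brain barrier. Smooth muscle cells carry actin and myosin isoforms with which they narrow the vessel and set local blood flow. Mural cells of the forebrain come mainly from the neural crest and not from the progenitors in which Emx1 is expressed.

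Control libraries held 27074837 to 32100277 mRNA counts and Dnmt3l libraries 22144970 to 26842726. Dnmt3l RNA was at 20.7 to 45.8 CPM (counts scaled to library size, with TMM scaling between libraries) in the 6 Dnmt3l libraries and at 0 to 3 counts in the 6 controls. DF1 held the highest Dnmt3l level, 45.8 CPM, yet stood apart from the other Dnmt3l libraries in most other respects. Its mitochondrial share of counts was 3.73%, beside 2.63% to 3.59% in controls and 5.57% to 7.30% in the other 5. CM3, CF1 and CF2 held liver transcripts, whose summed level was 98.5, 115 and 122 CPM there, 1.41 to 2.25 in the other 3 controls and 1.35 to 3.17 in Dnmt3l. Vtn and Anpep are also made by liver. Counts of genes called over the 9 genes and the lists are therefore also given without DF1, without those 3 controls and without all 4 libraries. Without CF1 and CF2 the control females are CF3 alone, which is then assumed to vary like the libraries of the other groups.

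Pericyte genes were higher in the Dnmt3l cortex, and smooth muscle genes less evenly so. Averaged over sexes, 7 of the 9 genes rose and 0 fell (edgeR quasi-likelihood test, Benjamini-Hochberg adjusted p below 0.05 over all tested genes). Of all tested genes, 25.2% were called higher and 26.4% lower in this comparison (3976 and 4160 genes, against 2329 and 4282 with limma on log2(FPKM + 0.1), which called 5 of the 9). All 6 pericyte genes rose, with a median log2 change of 0.68, and of the 3 smooth muscle genes only Myh11 did, with a median of 0.41. The median over all tested genes was 0.02. The count was 8 of 9 without DF1, 5 of 9 without the 3 controls with liver transcripts and 6 of 9 without all 4, where 30.1%, 12.2% and 25.1% of tested genes were called higher. The median of the 9 genes was 0.63 with all libraries and 0.71, 0.67 and 0.79 in those settings. In bulk tissue, more cells of a type and more RNA per cell cannot be told apart.

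**Figure D1:**
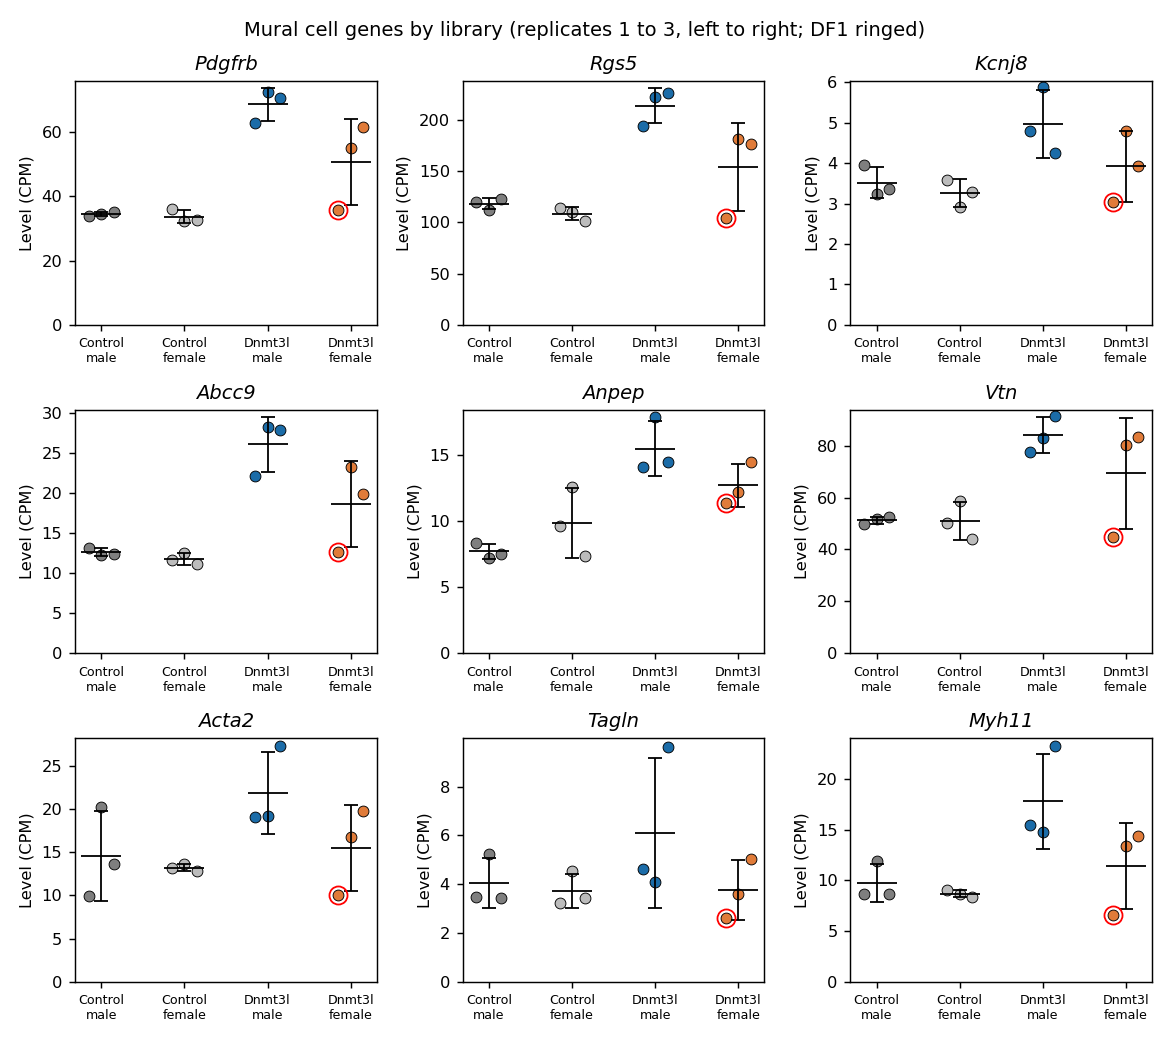
Level of each gene in the 12 libraries, in CPM, by group. Points are libraries, horizontal bars and whiskers the mean ± SD of 3 libraries, and the red ring marks DF1. The males of the Dnmt3l genotype and DF2 and DF3 lie above all controls for Pdgfrb, Rgs5, Abcc9, Vtn and Myh11, and DF1 lies within the control range for 7 of the 9 genes.

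No gene of the 9 had all 6 Dnmt3l libraries above all 6 controls, a pattern held by 5.47% of tested genes. With DF1 set aside, the other 5 lay above every control for 5 of the 9 genes (Pdgfrb, Rgs5, Abcc9, Vtn and Myh11), beside 19.4% of tested genes. DF1 was within the control range for 7 genes and below it for Tagln and Myh11. The plot of levels by group shows this for each gene.

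Per unit of length, Vtn and Rgs5 were the most abundant of the 9 in control cortex. Mean FPKM (fragments scaled to transcript length and library size, as deposited) over the 6 controls was 37.5 ± 3.86 for Vtn and 30.3 ± 1.98 for Rgs5 (SD), with ranges that overlap. Acta2 followed at 9.59 ± 3.24 FPKM and Pdgfrb at 6.78 ± 0.29. Anpep at 3.32 ± 0.83 and Tagln at 3.07 ± 0.69 FPKM overlapped, and Abcc9 at 1.96 ± 0.08 lay below both. Myh11 at 1.61 ± 0.28 FPKM overlapped with Abcc9 above it and with Kcnj8, the lowest at 1.52 ± 0.15. In counts per library the 9 genes ran from 67 for Tagln in DF1 to 5690 for Rgs5 in DM3.

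Pdgfrb encodes the PDGF receptor beta, through which endothelial PDGF-B recruits pericytes (ENSMUSG00000024620, GRCm38 chromosome 18, 61045150 to 61085061). Its level was 33.9, 34.4 and 35.2 CPM in control males and 35.9, 32.4 and 32.7 in control females. It was 62.8, 72.5 and 70.8 CPM in Dnmt3l males and 35.8, 55.1 and 61.5 in Dnmt3l females. The controls lay within a narrow band, 5 Dnmt3l libraries stood well above it, and DF1 fell inside it. Pdgfrb rose by 0.79 ± 0.11 on the log2 scale averaged over sexes (SE, edgeR adjusted p = 0.000293), a ratio of 1.73. Nearly all of its counts, 99.0%, were assigned to transcript ENSMUST00000025522. An assembled non-coding transcript assigned to the same gene held 2 to 10 counts per library.

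The ligands and the other receptor of the family were listed beside it. Among all tested genes, 25.2% were called higher, and 30.1% without DF1. Of the 5 genes, 4 rose and 0 fell, with a median log2 change of 0.35, and the count was 4 without DF1, 2 without the 3 controls with liver transcripts and 3 without all 4. Pdgfra, the receptor known from oligodendrocyte precursors and fibroblasts, rose from 60.5 to 69.5 CPM over the controls to 125 to 173 CPM over the Dnmt3l libraries other than DF1, which held 60.0. Its log2 change was 0.96 ± 0.15. Pdgfd, another ligand of the beta receptor, rose by 0.72 ± 0.16 and Pdgfc by 0.35 ± 0.10. Pdgfb, the endothelial ligand that holds pericytes at the vessel, rose by 0.23 ± 0.07 (edgeR adjusted p = 0.0193), less in log2 than its receptor, though the difference between the 2 genes was not tested. Pdgfa changed by 0.14 ± 0.08 and was not called (edgeR adjusted p = 0.148).

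Rgs5, a regulator of G protein signalling that is among the most abundant pericyte transcripts (ENSMUSG00000026678, chromosome 1, 169655501 to 169695813), followed Pdgfrb closely. It was at 120, 112 and 123 CPM in control males and 114, 110 and 101 in control females. In Dnmt3l males it reached 194, 222 and 226 CPM, and in Dnmt3l females 104, 181 and 176. As for Pdgfrb, DF1 was the only Dnmt3l library inside the control range. The averaged log2 change was 0.68 ± 0.11 (SE, edgeR adjusted p = 0.000599).

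Promoter windows show how unlike these genes are at their starts, in the CpG pairs on which DNA methyltransferases act. Dnmt3l encodes a catalytically inactive partner of those enzymes. RefSeq windows (GRCm38.p6, 250 bases before and 50 after the start) were found for 6 of the 9 genes. Rgs5 and Acta2 had 6 CpG pairs each, Kcnj8 and Vtn 9, Abcc9 16 and Anpep 28, and the median of 32851 windows was 7. Of all windows 47.9% held 6 or fewer and 14.2% held 28 or more. The windows of Rgs5 (plus strand, chr1:169655251-169655550) and Anpep (minus strand, chr7:79848161-79848460) are printed as those with the fewest and the most CpG pairs among the 5 pericyte genes with a window, each CpG in capitals. The Anpep window lies inside the deposited span of the gene and not at its outer end.
Rgs5: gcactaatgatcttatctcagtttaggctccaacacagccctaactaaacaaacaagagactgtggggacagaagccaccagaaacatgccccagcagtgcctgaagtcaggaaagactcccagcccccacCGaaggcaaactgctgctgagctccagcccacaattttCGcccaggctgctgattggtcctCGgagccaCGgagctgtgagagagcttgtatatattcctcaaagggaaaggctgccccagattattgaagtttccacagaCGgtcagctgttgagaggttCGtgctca
Anpep: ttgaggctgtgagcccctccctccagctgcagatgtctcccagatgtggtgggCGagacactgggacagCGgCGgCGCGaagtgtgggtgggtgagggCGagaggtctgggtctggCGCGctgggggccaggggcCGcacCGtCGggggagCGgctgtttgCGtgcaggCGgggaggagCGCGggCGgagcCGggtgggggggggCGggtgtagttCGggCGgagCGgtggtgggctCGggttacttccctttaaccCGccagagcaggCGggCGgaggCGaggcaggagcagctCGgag
Any relation between CpG content and the change of a gene was not tested. Methylation was not measured in these files, so the windows are a description of sequence only.

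Kcnj8 and Abcc9 encode the pore (Kir6.1) and the sulphonylurea receptor (SUR2) of the ATP-sensitive potassium channel of mural cells, and are neighbours on chromosome 6. Kcnj8 lies at 142564837 to 142571614 (ENSMUSG00000030247) and Abcc9 at 142587862 to 142702315 (ENSMUSG00000030249). Abcc9 was at 13.2, 12.3 and 12.4 CPM in control males and 11.7, 12.6 and 11.1 in control females. It was at 22.1, 28.2 and 27.9 CPM in Dnmt3l males and 12.7, 23.2 and 19.9 in Dnmt3l females, with DF1 again among the controls. Abcc9 rose by 0.85 ± 0.13 on the log2 scale (SE, edgeR adjusted p = 0.000377).

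Kcnj8 was scarce, with 78 to 143 counts per library. It was at 3.95, 3.24 and 3.36 CPM in control males and 3.59, 2.90 and 3.30 in control females. In Dnmt3l males it was at 4.79, 5.88 and 4.24 CPM and in Dnmt3l females at 3.03, 4.79 and 3.94. The groups overlapped, since DF1 and DF3 fell below the highest control. The averaged log2 change of 0.38 ± 0.15 passed the test narrowly (SE, edgeR adjusted p = 0.0470). That call was lost in 15 of 21 alternative settings, among them the omission of CM2, CM3, CF1, CF2, CF3, DM1, DM2, DF2 or DF3 alone (adjusted p 0.0513 to 0.259 over the 15).

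Of 4 other potassium channel genes listed, 1 rose and 0 fell, with the same counts in all 3 settings that leave libraries out. With all libraries that share is near the 25.2% of all tested genes called higher. Abcc8, the sulphonylurea receptor of neurons and pancreatic beta cells (SUR1), rose by 0.48 ± 0.08 (edgeR adjusted p = 0.000456). It went from 32.7 to 41.7 CPM over the controls to 40.5 to 58.1 over Dnmt3l. Its pore partner Kcnj11 changed by 0.20 ± 0.08 and was not called (edgeR adjusted p = 0.0540). The inward rectifiers Kcnj12 and Kcnj2 changed by 0.20 ± 0.12 and 0.07 ± 0.10 and were not called (edgeR adjusted p 0.181 and 0.617).

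Anpep encodes aminopeptidase N, the CD13 surface antigen used to identify brain pericytes (ENSMUSG00000039062, chromosome 7, 79821803 to 79861059). It was at 8.34, 7.24 and 7.56 CPM in control males and at 9.65, 12.6 and 7.37 in control females, whose spread was the wider. In Dnmt3l males it was at 14.1, 17.9 and 14.5 CPM, above every control. In Dnmt3l females it was at 11.4, 12.2 and 14.5 CPM, and DF1 and DF2 lay below CF2, the highest control. Anpep rose by 0.69 ± 0.13 on the log2 scale averaged over sexes (SE, edgeR adjusted p = 0.000968). Without CM3, CF1 and CF2 the change was 0.87 (edgeR adjusted p = 0.0167).

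Vtn encodes vitronectin, an adhesive matrix protein secreted by brain pericytes and, into plasma, by liver (ENSMUSG00000017344, chromosome 11, 78499091 to 78502324). Its level was 49.7, 51.6 and 52.4 CPM in control males and 50.2, 58.7 and 43.9 in control females. It was 77.7, 82.9 and 91.5 CPM in Dnmt3l males and 44.8, 80.1 and 83.4 in Dnmt3l females. CF2, which held the most liver transcripts, was the highest control, and DF1 again lay among the controls. Vtn rose by 0.58 ± 0.13 (SE, edgeR adjusted p = 0.00292), and by 0.67 without the 3 controls with liver transcripts (edgeR adjusted p = 0.0279). The part of liver RNA in the level of Vtn or Anpep was not tested further.

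**Figure D2:**
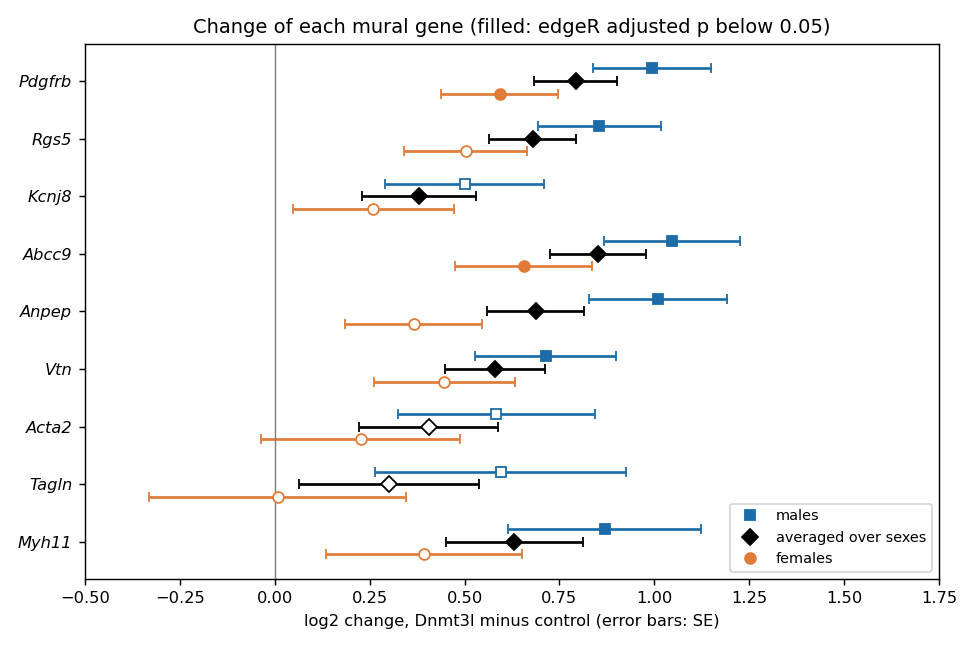
Log2 change of each gene in Dnmt3l against control, in males, in females and averaged over the sexes, with standard errors. Filled symbols passed an edgeR adjusted p of 0.05. All 27 estimates lie above 0, from 0.01 for Tagln in females to 1.05 for Abcc9 in males, and the male estimate exceeds the female one for each gene. DF1 is among the female libraries.

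Myh11, the smooth muscle myosin heavy chain and the most specific marker of mature smooth muscle here (ENSMUSG00000018830, chromosome 16, 14194535 to 14291372), was the smooth muscle gene that passed the test. It was at 8.69, 11.9 and 8.71 CPM in control males and 9.05, 8.67 and 8.39 in control females. In Dnmt3l males it was at 15.4, 14.8 and 23.2 CPM and in Dnmt3l females at 6.60, 13.4 and 14.4. DF1 was the lowest of all 12 libraries, while the other 5 Dnmt3l libraries lay above every control. Its averaged log2 change was 0.63 ± 0.18 (SE, edgeR adjusted p = 0.0108). The call was lost without CM3, CF1 and CF2, where the change was 0.60 (edgeR adjusted p = 0.111), and with limma on log2 FPKM (adjusted p 0.0783 and 0.0685 with pseudocounts of 0.1 and 1).

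Acta2 encodes smooth muscle alpha-actin, the main actin of contractile mural cells (ENSMUSG00000035783, chromosome 19, 34241090 to 34255590). The library CM2 stood out among controls, with 9.94, 20.2 and 13.6 CPM in control males and 13.2, 13.7 and 12.8 in control females. In Dnmt3l males the level was 19.1, 19.2 and 27.3 CPM and in Dnmt3l females 10.02, 16.8 and 19.7. Only DM3 exceeded CM2. The averaged log2 change of 0.41 ± 0.18 was not called (SE, edgeR adjusted p = 0.0804), but was called without CM2 (0.54, edgeR adjusted p = 0.0208) or without DF1 (0.51, edgeR adjusted p = 0.00898).

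The Acta2 window is printed because serum response factor acts on smooth muscle genes through the CArG box, CC followed by 6 A or T bases and GG. A CArG box in the strict sense was in 1.63% of all 32851 windows and in 0 of the 6 found here. With at most 1 G or C allowed among the 6 central bases, on either strand, it was in 9.98% of windows and, of the 6, in Acta2 alone. The capitals in the Acta2 window (minus strand, chr19:34255324-34255623) mark the matches CCCTATATGG, at bases -84 to -75 from the start, and CCTTGTTTGG, at -34 to -25.
Acta2: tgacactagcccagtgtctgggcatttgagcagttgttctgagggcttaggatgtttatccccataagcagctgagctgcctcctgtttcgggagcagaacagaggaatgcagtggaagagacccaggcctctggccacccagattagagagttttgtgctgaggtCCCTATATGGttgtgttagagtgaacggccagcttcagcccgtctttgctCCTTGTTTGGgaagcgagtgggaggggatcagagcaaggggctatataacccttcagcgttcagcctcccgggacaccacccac

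Tagln encodes transgelin (SM22 alpha), an actin-binding protein of smooth muscle (ENSMUSG00000032085, chromosome 9, 45929619 to 45936058). It was at 3.46, 5.24 and 3.45 CPM in control males and 3.23, 4.54 and 3.43 in control females. It was at 4.61, 4.07 and 9.64 CPM in Dnmt3l males and 2.60, 3.61 and 5.05 in Dnmt3l females, so that only DM3 lay above all controls. The averaged log2 change of 0.30 ± 0.24 was not called (SE, edgeR adjusted p = 0.300), and without DM3 it was 0.05. Tagln overlaps Pcsk7 on the opposite strand by 108 bases, the only such overlap of the 9 in the deposited coordinates, and no source used here says whether reads were counted by strand.

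DM3 held the highest level of all 12 libraries for Acta2, Tagln and Myh11, at 27.3, 9.64 and 23.2 CPM, and CM2 the highest control level of all 3. Among the pericyte genes DM3 was the highest library for Rgs5 and Vtn only, and CM2 the highest control for none. The summed smooth muscle level was 60.2 CPM in DM3 and 33.8 to 39.1 in the other Dnmt3l libraries apart from DF1, which held 19.2. It was 37.3 CPM in CM2 and 22.1 to 26.9 in the other 5 controls.

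Within males, 6 of the 9 genes rose and 0 fell, beside 20.4% of tested genes called higher and 22.7% lower. They were the pericyte genes other than Kcnj8, together with Myh11. Abcc9 rose by 1.05 ± 0.18, Anpep by 1.01 ± 0.18, Pdgfrb by 0.99 ± 0.15, Myh11 by 0.87 ± 0.25, Rgs5 by 0.86 ± 0.16 and Vtn by 0.71 ± 0.19 (SE, edgeR adjusted p 0.00148, 0.00172, 0.00110, 0.0152, 0.00210 and 0.00870). Tagln, Acta2 and Kcnj8 changed by 0.60 ± 0.33, 0.58 ± 0.26 and 0.50 ± 0.21 and were not called (edgeR adjusted p 0.160, 0.0844 and 0.0684). The male count was 8 without DF1, 5 without the 3 controls with liver transcripts and 6 without all 4, beside 24.0%, 9.87% and 20.8% of tested genes. The male call of Myh11 was lost without CM1, CM3 or DM3 (edgeR adjusted p 0.0580, 0.0613 and 0.0795).

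Within females, 2 of the 9 genes rose and 0 fell, beside 4.73% of tested genes called higher and 4.38% lower. Pdgfrb rose by 0.59 ± 0.15 and Abcc9 by 0.66 ± 0.18 (SE, edgeR adjusted p 0.0401 and 0.0432). The other 7 changes ran from 0.01 for Tagln to 0.50 for Rgs5 and were not called (edgeR adjusted p 0.0610 to 0.990). Both female calls ended on leaving out any single library other than DF1. Without DF1, 5 genes were called in females (Pdgfrb, Rgs5, Abcc9, Vtn and Myh11), beside 21.8% of tested genes called higher, and Pdgfrb changed by 0.78, Rgs5 by 0.71 and Abcc9 by 0.86. Without CM3, CF1 and CF2, with CF3 as the lone control female, the count was 0, beside 0.0127% of tested genes. Pdgfrb then changed by 0.62 and Abcc9 by 0.72, no less than with all libraries. Without those 3 and DF1, which leaves CF3 against DF2 and DF3, the count was 5, beside 14.1% of tested genes.

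All 9 estimates were higher in males than in females, but the difference between the sexes passed the test for none of them. The male change minus the female change ran from 0.24 ± 0.30 for Kcnj8 to 0.64 ± 0.25 for Anpep (edgeR adjusted p 0.680 to 0.822). By edgeR 0.0% of tested genes were called for this difference, with 1120 genes at an unadjusted p below 0.05, among them 1 of the 9, Anpep. DESeq2 called 5 genes and 0 of the 9, and limma on log2(FPKM + 0.1) called 0. The plot of log2 changes by sex shows the width of the standard errors on which this rests. The male excess depended on DF1. The median of the 9 differences was 0.39 with all libraries and 0.16 without DF1. Without DF1 and the 3 controls with liver transcripts, with CF3 as the lone control female, it was 0.06, and Vtn was then at -0.17.

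Those further pericyte and mural genes that were called moved in the same direction. Of 22 listed, all tested, 13 rose and 0 fell, with a median of 0.58, beside 25.2% of all tested genes called higher (30.1% without DF1). The count was 14 without DF1, 7 without the 3 controls with liver transcripts and 14 without all 4. Cspg4, the NG2 proteoglycan of pericytes and oligodendrocyte precursors, rose by 1.04 ± 0.16, from 38.8 to 46.9 CPM over controls to 82.4 to 117 over the Dnmt3l libraries other than DF1. Enpep, aminopeptidase A, which cleaves angiotensin, rose by 0.87 ± 0.16, and Notch3, the receptor that maintains arterial smooth muscle, by 0.85 ± 0.17. Mfge8, a secreted protein that bridges dying cells to phagocytes and is also made by astrocytes, rose by 0.79 ± 0.12. DF1 held 38.9 CPM of Cspg4, 3.30 of Enpep and 19.6 of Notch3, each within the control range.

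Of 21 other contractile genes listed, 18 were tested (Lmod1, Actg2 and Pln were too low), and 5 rose and 4 fell, with a median of 0.08. These shares are near those of all tested genes, 25.2% higher and 26.4% lower. The summed level of the 21 was lower in the Dnmt3l libraries other than DF1, at 873 to 941 CPM beside 1013 to 1094 in controls. DF1 held 1122. The counts were 6 higher and 4 lower without DF1, 2 and 1 without the 3 controls with liver transcripts, and 4 and 3 without all 4. Smtn, the actin-binding smoothelin, rose by 0.79 ± 0.12 and Cald1, caldesmon, by 0.40 ± 0.10. Tpm1, an alpha-tropomyosin gene that neurons and glia also express, fell by 0.66 on the log2 scale, from 124 to 150 CPM over controls to 75.1 at its lowest in Dnmt3l, with DF1 at 135. Pde5a, the cyclic GMP phosphodiesterase of smooth muscle, fell by 0.31. The remaining lower genes, Mrtfb, a coactivator of serum response factor, and Sncg, gamma-synuclein, are named because the count is small, after their values were seen (log2 change -0.27 and -1.22).

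Genes of pericyte recruitment and of the vascular basement membrane rose in 18 of 19 cases and fell in 0, with a median of 0.70. This stands beside 25.2% of all tested genes called higher (30.1% without DF1). The count was 18 without DF1, 16 without the 3 controls with liver transcripts and 18 without all 4. Col4a1 and Col4a2, the chains of type IV collagen that endothelium and pericytes share, rose by 1.30 ± 0.15 and 1.16 ± 0.14 (SE, edgeR adjusted p 0.000176 and 0.000177). Col4a1 was at 72.4 to 88.2 CPM in controls, 185 to 241 in the Dnmt3l libraries other than DF1 and 93.7 in DF1, which lay just above the controls. Itgav, the integrin alpha V chain that binds vitronectin, rose by 0.53 ± 0.06, and Tgfbr2, a TGF-beta receptor of endothelium and mural cells, by 0.54 ± 0.08. Angpt1, the Tie2 ligand released by pericytes, was the gene of the 19 not called, with a change of 0.01 ± 0.16 (edgeR adjusted p = 0.967).

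**Figure D3:**
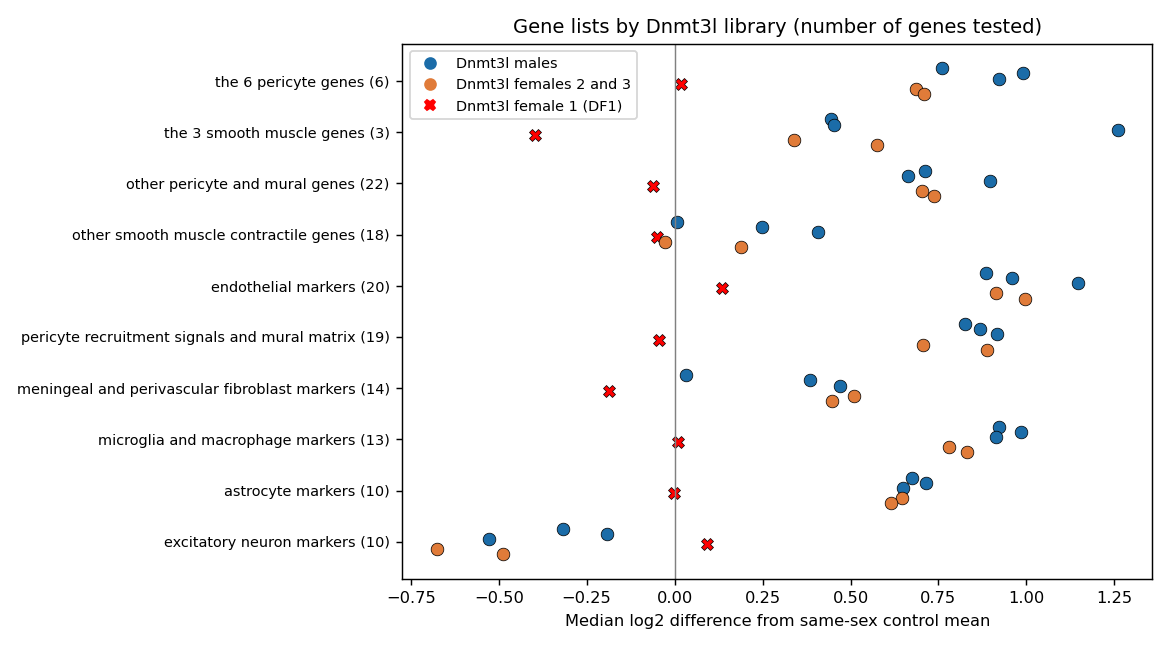
Median log2 difference of each gene list from the mean of the same-sex controls, for each of the 6 Dnmt3l libraries. Blue points are males, orange points DF2 and DF3, and the red cross DF1. For the 6 pericyte genes 5 libraries lie at 0.69 to 0.99 and DF1 at 0.02, and the endothelial, microglial and astrocyte lists separate DF1 from the others in the same way.

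Endothelial genes moved with the pericyte genes. Of 20 markers, 20 rose, with a median of 0.88, beside 25.2% of all tested genes called higher (30.1% without DF1). The summed level of the 20 was 492 to 569 CPM in controls, 964 to 1208 in the Dnmt3l libraries other than DF1 and 542 in DF1. The count was 20 without DF1, 18 without the 3 controls with liver transcripts and 20 without all 4. Cldn5 rose by 1.07 ± 0.13, Ly6c1, a surface antigen of brain endothelium, by 1.10 ± 0.14, and Pecam1, an adhesion molecule of endothelial junctions, by 0.92 ± 0.13. The summed level of the 6 pericyte genes was 200 to 234 CPM in controls, 357 to 435 in the 5 libraries and 212 in DF1.

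Divided by the endothelial sum of the same library, the pericyte sum was 0.432, 0.391 and 0.411 in control males and 0.429, 0.446 and 0.406 in control females. It was 0.345, 0.380 and 0.360 in Dnmt3l males and 0.392, 0.370 and 0.358 in Dnmt3l females. This ratio thus lay below the control range in 5 Dnmt3l libraries, and DF1 lay at the lower end of that range, beside CM2. Rgs5 and Vtn, at means of 113 and 51.1 CPM over the controls, held most of the pericyte sum. The ratio therefore reflects mainly those 2 genes. The smooth muscle sum per pericyte sum was 0.0966 to 0.169 in controls and 0.0885 to 0.139 in Dnmt3l, and these ranges overlap. No test was made of these ratios.

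**Figure D4:**
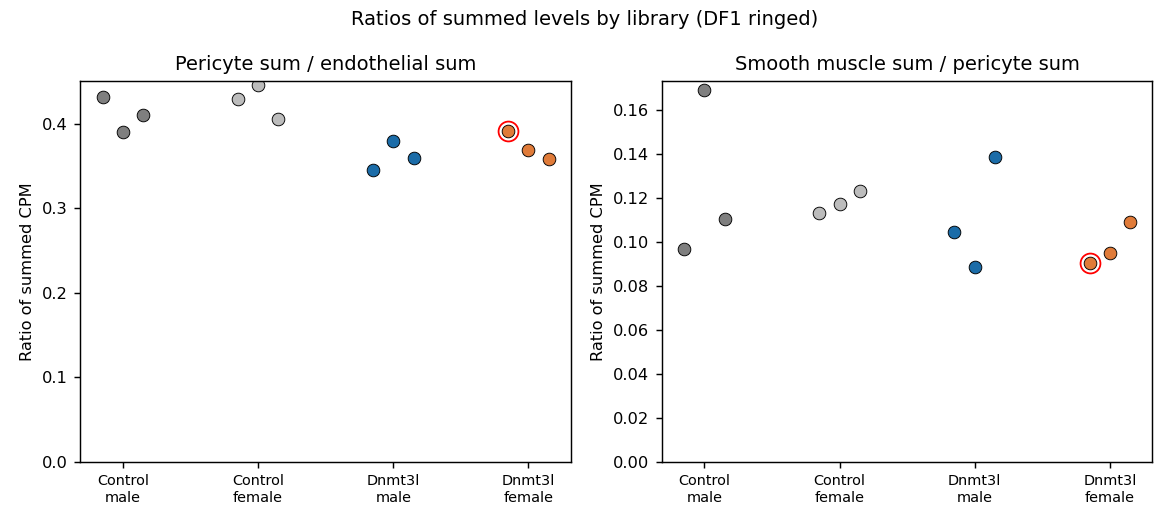
Ratios of summed CPM in each library, by group: the 6 pericyte genes over 20 endothelial markers (left) and the 3 smooth muscle genes over the 6 pericyte genes (right). Points are libraries and the red ring marks DF1. The left ratio is 0.391 to 0.446 in controls and 0.345 to 0.392 in Dnmt3l, and the right ratios overlap.

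Markers of other cells of the cortex were listed beside the shares of all tested genes, 25.2% called higher and 26.4% lower averaged over sexes. Of 13 microglial and macrophage markers 12 rose (median 0.73), with a summed level of 304 to 348 CPM in controls, 540 to 667 in the Dnmt3l libraries other than DF1 and 332 in DF1. The count was 13 without DF1, 10 without the 3 controls with liver transcripts and 12 without all 4. Of 10 astrocyte markers 9 rose and 1, Aldh1l1, fell (median 0.57), and their sum was 6700 to 7294 CPM in controls, 11305 to 13786 in those 5 libraries and 7490 in DF1. The astrocyte counts were 9 higher and 1 lower without DF1, 7 and 0 without the 3 controls, and 8 and 0 without all 4. Of 14 markers of meningeal and perivascular fibroblasts 4 rose with all libraries, near the share of all tested genes, and 1 fell (median 0.32). Without DF1, 9 of the 14 rose, beside 30.1% of all tested genes called higher. The summed level of the 14 was 241 to 315 CPM in controls, 314 to 403 in the 5 libraries and 214 in DF1. The count of higher fibroblast markers was 9 without DF1, 2 without the 3 controls with liver transcripts and 8 without all 4, with 1 lower in each. Lama1, a laminin of the pial surface, rose by 0.82 ± 0.15 and Col3a1, type III collagen, by 0.91 ± 0.22, while Aldh1a2, the retinoic acid-forming enzyme of the meninges, fell by 0.91.

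Of 10 excitatory neuron markers 2 rose and 4 fell, with a median of -0.33, beside 25.2% and 26.4% of all tested genes. Their summed level was higher in Dnmt3l, at 6107 to 7291 CPM beside 4714 to 5664. Camk2a, the most abundant of them, was among those that rose. Without DF1 2 rose and 7 fell (median -0.56), without the 3 controls with liver transcripts 2 and 3 (median -0.29), and without all 4 libraries 2 and 7 (median -0.50). Of 5 red blood cell markers 4 fell (median -0.99), with sums of 106 to 513 CPM in controls and 72.2 to 218 in Dnmt3l. Averaged over sexes 4 fell without DF1, 0 without the 3 controls with liver transcripts and 1 without all 4. Without the 3 controls the median of these markers was -1.10 within males and 0.36 in females, against CF3 alone. Without all 4 libraries it was -1.10 within males and 0.68 in females, so the averaged value joins opposite directions. All 15 tested liver markers fell, with and without DF1, and 0 did so without those 3 controls or without all 4 libraries. The part of these cell types, of meningeal tissue and of retained blood in the mural gene results was not tested.

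The genes whose profile over the 12 libraries came closest to the mean of the 6 pericyte genes were Nup210, Grn, Adam15, Ptprg and Ttyh1. Their root-mean-square difference from that profile was 0.07 to 0.08 on the log2 scale, beside a median of 0.47 for all other tested genes, 0.08 for Rgs5 and 0.21 for Anpep. The smooth muscle profile, a mean of 3 genes and not of 6, was matched less closely. Its nearest genes, Slc6a11, Gm5067, Gsdmd, Lrig1 and Slc6a9, differed from it by 0.14 to 0.17, beside a median of 0.51. Acta2, Myh11 and Tagln themselves differed from it by 0.10, 0.13 and 0.16. Each of the 9 genes is part of the mean of its own set, which lowers its distance. The distances of the 9 therefore cannot be compared with those of other genes.

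Transcript models of the 9 genes were compared only as a check on the gene sums. Of 31 models, some of the same gene took turns between libraries. How alike their sequences are was not compared. For Anpep, ENSMUST00000049004 held 0.01 counts and ENSMUST00000107392 held 328 in CF2, while in CM2 they held 206 and 0. For Myh11, ENSMUST00000231567 held 33.8 and ENSMUST00000090287 held 305 counts in DM1, against 166 and 0 in DF1. Summed over models, Anpep held 217 to 347 counts in each control and Myh11 239 to 363, and all values above rest on such sums. Abcc9 drew 85.0% of its counts from ENSMUST00000100827 and Kcnj8 95.8% from ENSMUST00000203945.

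**Figure D5:**
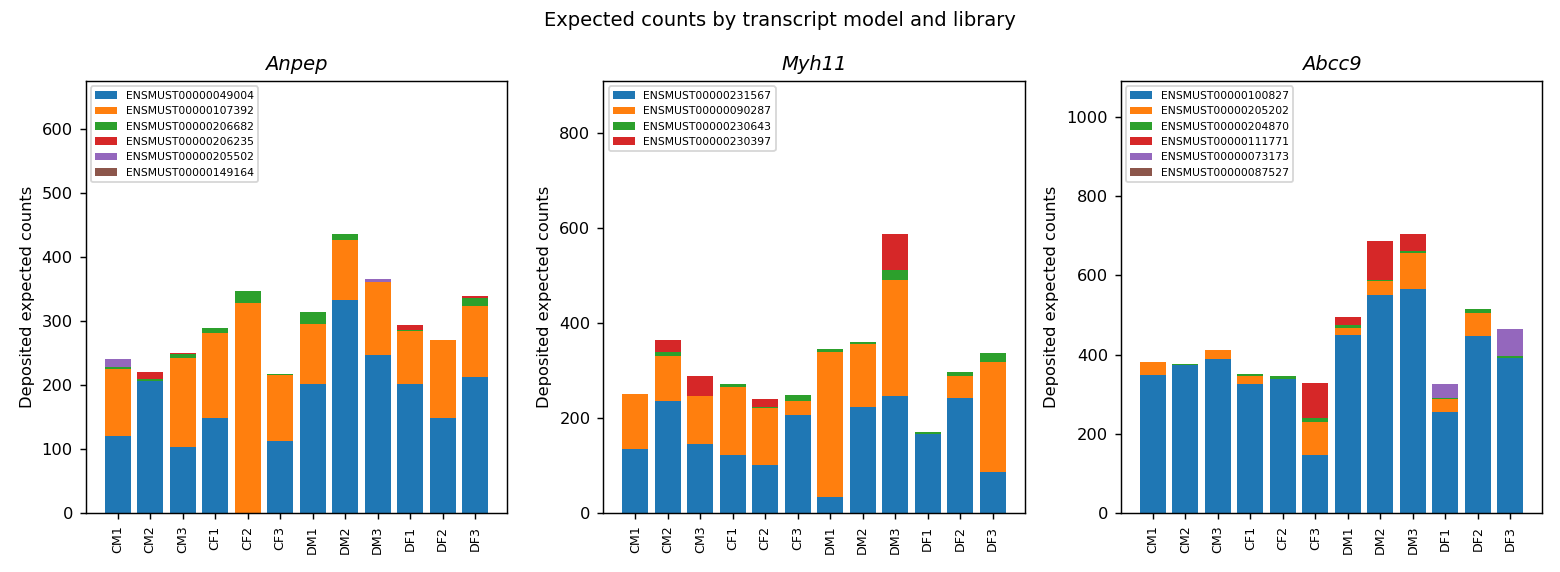
Deposited expected counts of Anpep, Myh11 and Abcc9 in each library, stacked by transcript model. The division between the 2 long models of Anpep and of Myh11 differs from library to library within a group, for example in CF2, where nearly all 347 counts of Anpep stand under ENSMUST00000107392.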

How the data were processed

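RNA of 12 samples was sequenced after ribosomal RNA depletion, and per the labels' protocols the libraries kept strand through dUTP marking. The submitters' processing notes name cutadapt 1.9.1, HISAT2 2.0.1, HTSeq 0.6.1, DESeq2 and the build GRCm38, with no role or order. The authors deposited expected counts and FPKM per Ensembl transcript (119414, of which 1774 had no gene ID and held 0.533% to 0.601% of a library's counts, left out here), and expected counts of assembled non-coding transcripts. No source used here names the program behind the expected counts. The 9 genes and all lists were chosen with earlier results of these data known, and no list or pattern is independent support.

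Expected counts were summed per gene, rounded and tested with edgeR 4.0.16 in R 4.3.3 (TMM, quasi-likelihood, 4 group means, 8 residual degrees of freedom, two-sided), for 15786 genes with at least 0.5 FPKM in at least 3 libraries. Calls are at a Benjamini-Hochberg adjusted p below 0.05 over all genes in each comparison. Counting error is widest for Tagln and Kcnj8, which held the fewest counts. Alternatives were other scalings, DESeq2 1.42.0, limma 3.58.1 on log2 FPKM with a pseudocount of 0.1 or 1, no filter on low values, the replicate block and libraries left out. The fit was also run on simulated counts with few changed genes and no outlying libraries. That setting is unlike these data, and its outcome is not used here. Named genes are the 9, the 4 of smallest p of each list (examples printed), up to 3 called against a list's direction, and the 5 nearest profiles. No columns of values were left unassigned (0), and small and circular RNAs are not used here.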

Additional observations from a re-analysis of the deposited data

How the results depend on the processing

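Over 21 alternatives, Pdgfrb, Rgs5, Abcc9, Anpep and Vtn kept their direction and their averaged calls, Tagln stayed uncalled, and no value of the 9 genes changed sign in the averaged comparison. Leaving out 1 library at a time, the averaged count of the 9 called higher ran from 6 to 8, the male count from 5 to 8 and the female count from 0 to 5. In females the count was 0 with limma at either pseudocount and without CM3, CF1 and CF2, and 5 without those 3 and DF1. In both settings without CF1 and CF2 the control females are CF3 alone, assumed to vary like the other groups, so these female counts do not show how stable the calls are. That last alternative was chosen after seeing the data. Without CM3, CF1 and CF2 alone, Kcnj8 and Myh11 were not called, and the cause was not tested.

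Among all genes, limma at pseudocounts of 0.1 and 1 called 2329 and 2345 higher and 4282 and 4269 lower averaged over sexes (main 3976 and 4160), 1595 and 1630 higher and 3734 and 3733 lower in males (3225 and 3577), and 94 and 93 higher and 245 and 282 lower in females (746 and 691). The median log2 change of all genes was -0.06 and -0.04 with limma and 0.02 to 0.06 with the count scalings. Without CM3, CF1 and CF2 the higher and lower counts were 1920 and 2439 averaged, 1558 and 2126 in males and 2 and 0 in females. In females DESeq2 gave 1566 and 1655, and the omission of all 4 libraries 2232 and 2999. For the male minus female difference DESeq2 gave 3 and 2, and the lower count was 1 without CM3, CF1 and CF2 and 5 without all 4. Leaving out 1 library, higher and lower counts ran from 3319 to 4744 and 3713 to 5183 averaged, 2198 to 3790 and 2700 to 4641 in males, 2 to 3448 and 5 to 3995 in females, and 0 to 2 and 0 to 24 for the difference.

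The labels do not say that replicate numbers pair the libraries. Same-numbered deviations from group means correlated at -0.09 to 0.03, which gives no sign of pairing but cannot exclude it. With the replicate block, 6 of the 9 genes were called higher averaged over sexes, 7 in males and 2 in females. Of the 15786 tested genes, 3811, 3073 and 551 were called higher there. Kcnj8 was at an edgeR adjusted p of 0.0709 averaged over sexes (0.0147 to 0.259 over its 21 alternatives). Acta2 was called in males with the block (edgeR adjusted p = 0.0421).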
